A study of Mus musculus with 2 samples.

Results

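The 9 genes described here encode transcription factors of the myeloid lineage: the PU.1 family (Spi1, Spib and Spic), the CCAAT/enhancer binding proteins Cebpa, Cebpb, Cebpd, Cebpe and Cebpg, and the repressor gene Gfi1. They were chosen by name, not by a measured value, and are 9 of the 21851 protein-coding genes of the GENCODE annotation whose start sites were examined. DNase-seq maps open chromatin by cutting nuclei with the enzyme DNase I, which reaches DNA where nucleosomes are displaced. The 2 libraries, biological replicates 1 and 2, come from spleens of male B6CASTF1/J mice aged 4 days, a cross whose cells carry a C57BL/6 and a CAST genome. The labels name no treatment and no second group, so the values below describe 1 condition and no contrast was tested. The labels give each library its own biosample and animal number but the same donor entry. The spread between the libraries may therefore be technical in part.

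PU.1, the product of Spi1, is an ETS-domain factor that myeloid and B cells need to form, and its dose helps set the choice between macrophage and other fates. SPI-B acts beside PU.1 in B cells and plasmacytoid dendritic cells, and SPI-C is known for the iron-recycling red pulp macrophages of the spleen. C/EBP proteins bind DNA as leucine-zipper dimers: C/EBPα starts granulocyte commitment, C/EBPε drives late granule genes, C/EBPβ and C/EBPδ respond to cytokines and emergency demand, and C/EBPγ lacks an activation domain and pairs with the others. GFI1 is a zinc-finger repressor that favours neutrophils over monocytes and opposes PU.1.

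A promoter was called open where a region with peaks of both libraries lay within 1 kb of an annotated start site. By that rule 8 of the 9 genes were open, beside 59.7% of all protein-coding genes, and Spic was not. The stricter peak list of the authors gave the same 8 genes, beside 54.6% of all genes. Footprints are short protected stretches inside open DNA, listed by the authors at a false discovery rate of 0.01. A footprint seen in both libraries lay within 1 kb of the start site in 7 of the 9 genes, beside 56.3% of all genes, and was missing at Spic and Cebpe. The signal of a promoter is the highest peak value within that window, on a scale the sources used here do not state and that is each library's own.

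**Figure D1:**
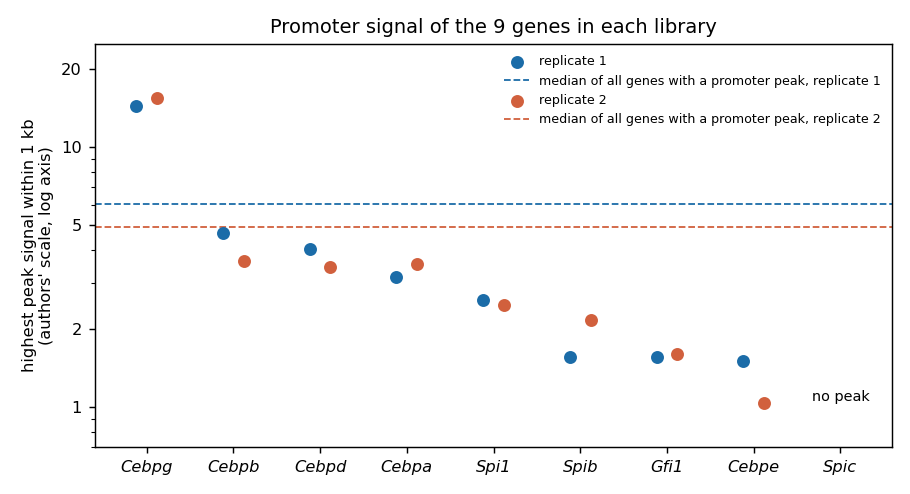
Highest peak signal within 1 kb of a start site (log axis, the authors' scale) for each of the 9 genes in replicate 1 and replicate 2. Dashed lines are each library's median over all genes with a promoter peak, 6.04 and 4.93. Only Cebpg, at 14.4 and 15.5, lies above them, and Spic has no peak.

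Spi1 lies on chromosome 2, on the forward strand, and its promoter signal was 2.58 in replicate 1 and 2.47 in replicate 2 (mean 2.52 ± 0.0791, SD, n = 2). These values are at the percentiles 31.9 and 34.1 among genes with a promoter peak, so the gene of the lineage's central regulator had a promoter peak in the lower part of the range. No peak covered the start site of the basic annotation, chr2:91096096. The nearest peak began 505 bp downstream of it in both libraries and spanned a start site at 91096780 that only the comprehensive annotation lists. 3 footprints were shared by both libraries within 1 kb.

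Around Spi1, from 50 kb before the gene to 50 kb after it, 11 regions were shared by both libraries, and 7 of them touched no promoter. The strongest of the 7 was an intronic site 5.5 kb downstream of the start site, with signals of 6.78 and 5.74. The next was a site 13.0 kb upstream, with 2.96 and 2.83, where the upstream regulatory element of Spi1 is known to lie. That element is an enhancer that binds PU.1 itself, C/EBP and RUNX factors in myeloid cells, and its loss lowers PU.1 dose. Both sites were above the promoter in both libraries, and their ranges did not overlap with its range. The stretch 13.0 kb upstream is intronic only through a longer transcript whose start site, at 91082390, lies 531 bp before it. Another region, in a coding exon 19.1 kb downstream, reached 3.16 and 2.44, a range that overlaps that of the promoter. Weaker regions lay 11.4 kb upstream (1.21 and 0.965) and 6.9 kb upstream (0.941 and 0.883).

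The 2 strongest regions of Spi1 are shown because they carry the gene's highest accessibility. They are read from the GRCm38 reference, 5′ to 3′ on the strand of the gene, with capitals for bases inside footprints of both libraries.
Spi1 upstream region, chr2:91082921-91083200: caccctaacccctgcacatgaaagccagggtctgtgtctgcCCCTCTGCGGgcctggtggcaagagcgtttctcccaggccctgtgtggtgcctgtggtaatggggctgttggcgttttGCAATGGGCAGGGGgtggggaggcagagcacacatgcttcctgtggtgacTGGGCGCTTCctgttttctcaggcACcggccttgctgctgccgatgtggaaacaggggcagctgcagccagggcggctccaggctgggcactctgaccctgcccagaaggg
Spi1 intronic region, chr2:91101501-91101680: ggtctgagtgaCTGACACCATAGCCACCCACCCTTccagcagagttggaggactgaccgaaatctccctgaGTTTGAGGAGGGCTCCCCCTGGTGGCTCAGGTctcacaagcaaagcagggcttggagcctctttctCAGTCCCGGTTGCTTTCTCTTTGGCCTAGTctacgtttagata
In the upstream region a C/EBP match (TTGCNNAA, either strand) covered bases 116 to 123, and its last 4 bases are in capitals. RUNX matches (TGTGGT) began at bases 85, 94 and 161, none of them in capitals. ETS core matches (GGAAG) lay at bases 156 to 160 and 176 to 180, the second with 4 of its 5 bases in capitals. The longer PU.1 pattern GAGGAAGT was not in these letters. In the intronic region the ETS core touched a footprint at bases 33 to 37, and a CTCF core (CCAGGGGG) lay wholly inside a footprint at bases 86 to 93. CTCF is the factor that anchors chromatin loops. The CTCF pattern was added after the footprint sequences had been seen. A match is a description of letters and no evidence of binding.

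Spib lies on chromosome 7, on the reverse strand, and its promoter signal was 1.55 and 2.15 (1.85 ± 0.422). Replicate 2 was the higher library, but the 2 values come from different peaks. Replicate 1 was highest 0.7 kb downstream of the start site, where replicate 2 had 1.77. Replicate 2 was highest 1.0 kb upstream, in an intron of Pold1, where replicate 1 had 1.38. A peak covered the start site in both libraries, at 1.09 and 1.78, and 4 footprints were shared within 1 kb. The 17 shared regions of the locus exceed those of 89.8% of genes, but 7 of them touch promoters of neighbouring genes. Of those neighbours Pold1, which encodes the catalytic subunit of DNA polymerase delta, had the strongest peak, at 30.8 and 26.6. Regions that touch no promoter lay inside the gene 3.9 kb and 4.4 kb downstream, at 3.32 and 2.69 and at 3.08 and 3.09. Both were above the promoter in both libraries. A further region 29.1 kb upstream had 2.46 and 3.29 and a shared footprint with a C/EBP match.

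Spic lies on chromosome 10, on the reverse strand, and neither library had a peak within 1 kb of its start site. The closest peak was 44.3 kb upstream, at 0.522 and 0.527, and touched no promoter. The remaining 2 shared regions of its locus are at the promoter of the neighbouring gene Arl1. The authors also deposited every position whose cut rate passed a false discovery rate under 0.05. None of those positions lay within 1 kb of Spic in either library, as for 33.7% of all genes. Of the 31-base words in this window 11% occur more than once in the genome, and the rest occur once. The result is a list without an entry at an unknown depth, and in whole spleen few cells of a type and closed chromatin in all cells cannot be told apart.

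Among the C/EBP genes Cebpg had the strongest promoter. Cebpg lies on chromosome 7, on the reverse strand, and its signal was 14.4 and 15.5 (14.9 ± 0.747), at the percentiles 82.5 and 90.9. It had 9 shared footprints within 1 kb, more than the median of 5 over open genes. Outside promoters its locus had 3 shared regions, of which the strongest, in an intron of Pepd 30.5 kb downstream, had 1.5 and 2.06. The upstream part of the start-site peak is shown because no other promoter of the 9 genes was as accessible.
Cebpg upstream of the start site, chr7:35056574-35056760: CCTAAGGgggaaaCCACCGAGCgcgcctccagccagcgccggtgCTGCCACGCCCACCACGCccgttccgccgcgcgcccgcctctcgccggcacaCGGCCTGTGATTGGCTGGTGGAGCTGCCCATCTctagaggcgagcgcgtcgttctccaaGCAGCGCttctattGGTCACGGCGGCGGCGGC
Footprints of both libraries cover 92 of its 187 bases. None of the patterns searched matched in these letters.

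Cebpa lies on chromosome 7, next to Cebpg and on the opposite strand, and its promoter signal was 3.16 and 3.54 (3.35 ± 0.265). A peak covered the start site in both libraries and 7 footprints were shared. The locus held 6 shared regions, 3 of them at the promoter, and none further upstream. The known myeloid enhancer downstream of Cebpa lies between 35 and 39 kb from the start site. A shared region was found there, 37.3 kb downstream, with only 0.624 and 0.568, above 24.3% of all shared regions. It was in the stricter list of replicate 1 alone and held no shared footprint. A region 50.3 kb downstream was stronger, at 2.52 and 3.11, with 3 shared footprints, and another 52.7 kb downstream had 0.989 and 1.09. The promoter and the weak site are shown, since one carries a footprint over a CTCF core and the other is the described enhancer.
Cebpa upstream of the start site, chr7:35119161-35119292: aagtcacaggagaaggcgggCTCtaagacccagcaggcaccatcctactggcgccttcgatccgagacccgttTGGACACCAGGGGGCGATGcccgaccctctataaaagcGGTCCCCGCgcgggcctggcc
Cebpa downstream enhancer site, chr7:35156494-35156704: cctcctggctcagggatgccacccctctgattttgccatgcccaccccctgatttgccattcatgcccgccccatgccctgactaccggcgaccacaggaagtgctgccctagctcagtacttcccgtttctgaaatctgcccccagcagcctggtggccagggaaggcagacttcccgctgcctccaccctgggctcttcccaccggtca
In the promoter the CTCF core CCAGGGGG lay at bases 80 to 87, all in capitals. The enhancer site has 5 ETS cores and 2 GFI1 cores (AAATCNNNG), the latter at bases 25 to 33 and 47 to 55, and 1 RUNX match. It has no capitals because no footprint of both libraries overlaps there.

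Cebpb lies on chromosome 2, on the forward strand, and its promoter signal was 4.66 and 3.65 (4.15 ± 0.714), with 7 shared footprints. Its surroundings held 23 shared regions, more than those of 96.6% of genes. 18 of the 23 touched no promoter, and 13 of them were in introns of Tmem189 or Gm20431, the neighbours on that side. The strongest lay 3.6 kb upstream, with 8.3 and 9.37, and the second 8.8 kb upstream, with 6.22 and 5.91. Both were higher than the promoter in both libraries, without overlap. A further region 8.1 kb upstream had 2.23 and 2.41. Both of the strongest are shown.
Cebpb upstream region nearest the gene, chr2:167685241-167685420: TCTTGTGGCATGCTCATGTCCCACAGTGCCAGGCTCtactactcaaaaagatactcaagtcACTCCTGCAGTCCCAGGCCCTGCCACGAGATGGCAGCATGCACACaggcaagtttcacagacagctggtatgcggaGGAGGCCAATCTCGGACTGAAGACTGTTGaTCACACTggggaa
Cebpb second upstream region, chr2:167680041-167680220: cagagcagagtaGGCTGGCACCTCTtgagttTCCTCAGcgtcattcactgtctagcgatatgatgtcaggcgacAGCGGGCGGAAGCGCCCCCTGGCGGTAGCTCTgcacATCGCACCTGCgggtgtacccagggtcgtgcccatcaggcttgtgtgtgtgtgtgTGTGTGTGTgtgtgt
In the nearer region footprints cover 117 of 180 bases, and the only match was 1 E-box (CANCTG) outside them. In the other a single run of capitals holds an ETS core at bases 82 to 86, a KLF/SP match (GGGCGG) at bases 78 to 83 and a CTCF core at bases 89 to 96. The first 2 of these overlap by 2 bases.

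Cebpd lies on chromosome 16, on the forward strand, and its promoter signal was 4.05 and 3.47 (3.76 ± 0.415). A peak covered the start site, and 6 footprints were shared. All 3 regions between 1.9 kb and 3.5 kb downstream, in the part of its exon after the coding sequence, were weak, with means of 0.458 to 0.604. The strongest region without a promoter was 48.6 kb upstream in an intron of Prkdc, at 1 and 1.32. Thus Cebpd, like Cebpa and Cebpg, had its highest signal at its own promoter among regions that touch no other gene's promoter.

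Cebpe lies on chromosome 14, on the reverse strand, and had the weakest of the 8 open promoters, at 1.5 and 1.03 (1.26 ± 0.335). Its shared peak lay 0.9 kb upstream of the start site and held no shared footprint. A second peak within 1 kb, 93 bp from the start site, was present in replicate 1 alone, at 0.581. A region 6.2 kb downstream, past the end of the gene, was far stronger, at 5.77 and 4.94, and had 6 shared footprints. Another 10.7 kb downstream had 3.91 and 3.76, and one 5.4 kb downstream had 1.45 and 1.64. An enhancer of Cebpe in granulocytic cells is known downstream of the gene, which is why the strongest region is shown.
Cebpe downstream region, chr14:54705861-54706140: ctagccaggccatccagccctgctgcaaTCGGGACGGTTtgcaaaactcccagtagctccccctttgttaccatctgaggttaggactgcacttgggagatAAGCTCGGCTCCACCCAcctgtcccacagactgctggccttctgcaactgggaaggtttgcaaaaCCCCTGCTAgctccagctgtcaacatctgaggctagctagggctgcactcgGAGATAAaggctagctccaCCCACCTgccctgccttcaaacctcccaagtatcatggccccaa
C/EBP matches lay at bases 39 to 46, 141 to 148 and 159 to 166, and GATA matches (AGATAA) at bases 98 to 103 and 219 to 224. The second GATA match was wholly in capitals. GATA1 is the master factor of red cells. There were also 6 E-boxes, of which one at bases 239 to 244 had 5 bases in capitals.

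Gfi1 lies on chromosome 5, on the reverse strand, and its promoter signal was 1.56 and 1.59 (1.58 ± 0.018). The close agreement is between different peaks: replicate 1 was highest 0.3 kb downstream of the start site and replicate 2 at the start site, where replicate 1 had 1.22. Within 1 kb of the annotated start sites 5 footprints were shared. The strongest region of the locus lay 37.8 kb downstream, between genes, at 2.86 and 2.33, above the promoter in both libraries. A weak region beside it, 37.2 kb downstream (0.376 and 0.405), lay in the non-coding gene 5830411K02Rik. Start sites of non-coding genes were not counted as promoters. The region 37.8 kb downstream is shown for its KLF/SP matches.
Gfi1 downstream region, chr5:107687941-107688140: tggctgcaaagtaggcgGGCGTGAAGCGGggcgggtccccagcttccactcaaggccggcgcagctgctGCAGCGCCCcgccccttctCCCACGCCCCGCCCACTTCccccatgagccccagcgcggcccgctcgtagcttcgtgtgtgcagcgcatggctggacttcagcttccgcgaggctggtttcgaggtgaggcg
KLF/SP matches began at bases 29, 78 and 97, the last wholly in capitals. An ETS core at bases 104 to 108 had 4 of its 5 bases in capitals.

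The order of the promoter signals, from highest to lowest mean, was Cebpg, Cebpb, Cebpd, Cebpa, Spi1, Spib, Gfi1 and Cebpe. The ranges of the 2 libraries overlapped for Cebpb and Cebpd, for Cebpd and Cebpa, and for Spib and Gfi1. They did not overlap for Cebpg and Cebpb, Cebpa and Spi1, Spi1 and Spib, or Gfi1 and Cebpe. The lower part of the order depended on the window. With 2500 bp the mean was 1.62 at Cebpe and 1.58 at Gfi1. With 500 bp Spi1 had no promoter peak, while Spib had a mean of 1.67. With 2 libraries this order is a description.

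The promoters also differed in CpG content, which the choice of genes did not use. The ratio of observed to expected CpG was 0.889 at Cebpa, 1.01 at Cebpb, 0.858 at Cebpd, 0.95 at Cebpg and 0.588 at Gfi1. It was 0.341 at Spi1, 0.087 at Spib, 0.252 at Spic and 0.369 at Cebpe. The 4 highest signals thus belonged to the 4 genes with the highest ratios. Over all genes 89.2% of 12044 promoters with a ratio of at least 0.5 were open, beside 23.4% of 9807 below it. Spi1, Spib and Cebpe are therefore among the smaller group of CpG-poor promoters that were open. At Spi1 and Cebpe the shared peaks lay more than 500 bp from the start site, outside the stretch whose CpG was counted. The signals of Spi1, Spib and Cebpe can be read against the median of open CpG-poor promoters, 1.58 and 1.43. Spi1 was above it in both libraries, Spib only in replicate 2, and Cebpe below it in both. The median of open promoters with a ratio of at least 0.5 was 7.78 in replicate 1 and 6.35 in replicate 2. Cebpg was above that median in both libraries, and Cebpa, Cebpb, Cebpd and Gfi1 were below it in both.

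**Figure D2:**
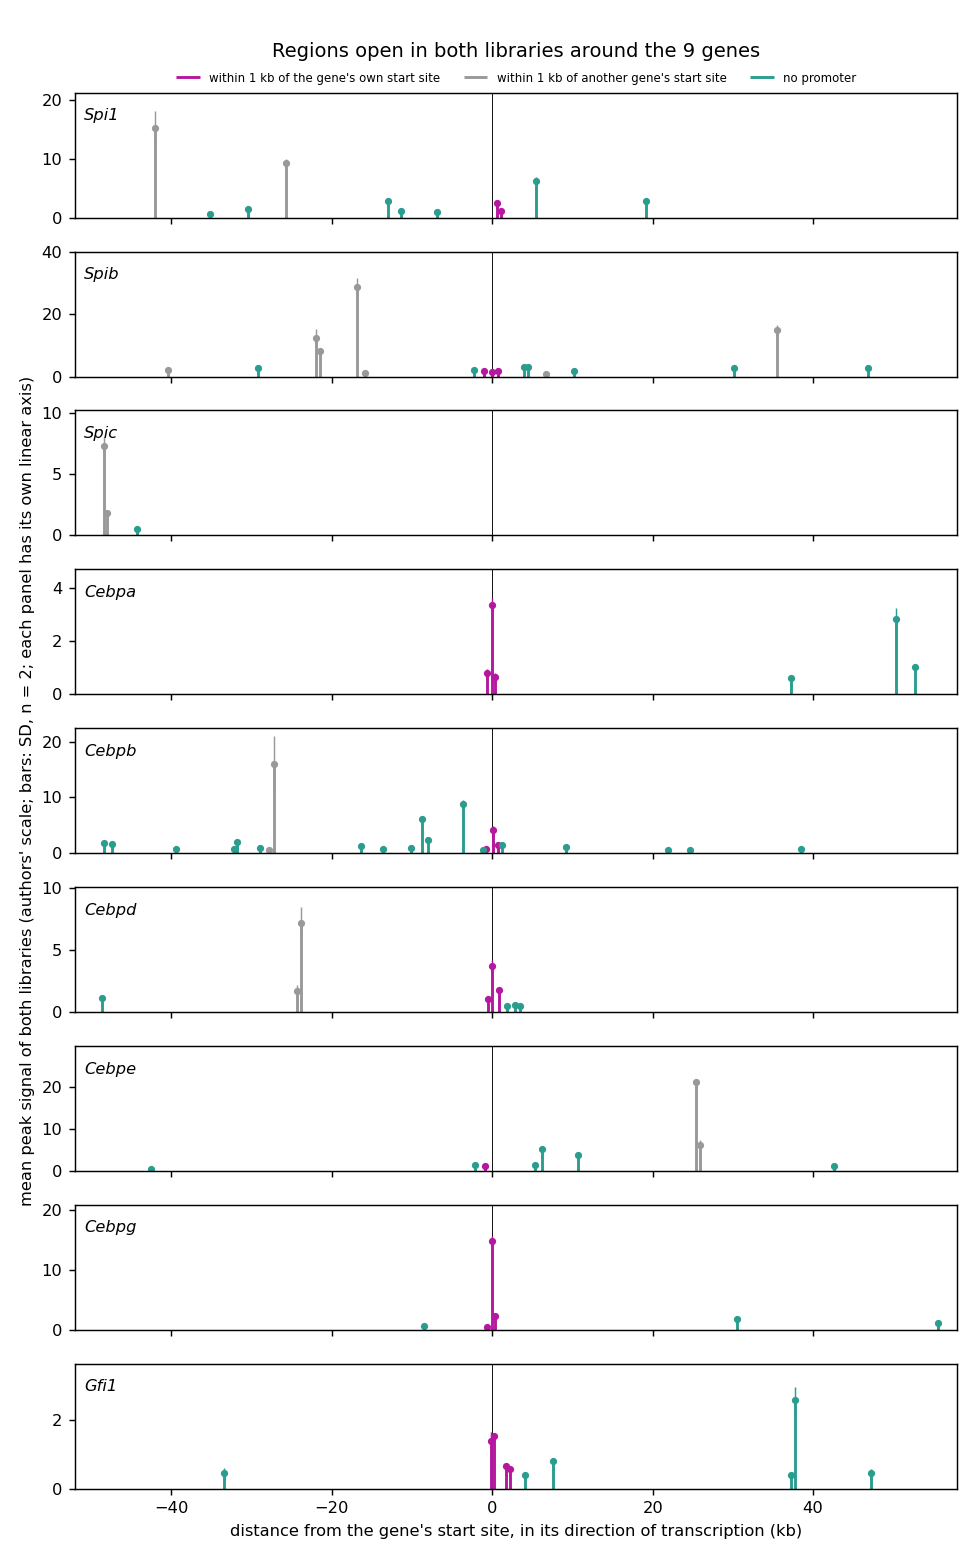
Mean peak signal of both libraries (bars: SD, n = 2; each panel has its own linear axis) against distance from the start site, for regions shared by both libraries within each gene and 50 kb on either side. Spi1, Spib, Cebpb, Cebpe and Gfi1 have teal lines, which touch no promoter, taller than their own purple promoter lines, and Spic has 1 low teal line at its far left.

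Taking all 9 loci, 94 regions were shared by both libraries, and 63 of them were also in the stricter list of both. The same share over all shared regions was not counted, so the 63 set these loci apart from no others. 22 touched a promoter of the 9 genes, 17 touched another gene's promoter and 55 touched none. Of these 55, 27 were in introns, 10 between genes, 8 in non-coding genes and 10 in exons. Of the 8 open genes, 5 had a region outside promoters with a higher signal than their own promoter in both libraries: Spi1, Spib, Cebpb, Cebpe and Gfi1. The same held for 25.3% of all 13041 open genes. A region near a gene need not act on it, and no link between these regions and promoters was measured.

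Short patterns were counted in the 144 shared footprints of the regions that touch no other gene's promoter, with 5 bases added at each side. Both strands were read. ETS cores were in 6.94% of these footprints, beside 11% of the 111264 shared footprints that lie in shared regions genome-wide. C/EBP matches were in 1.39% beside 0.738%, which are 2 footprints, and E-boxes in 13.2% beside 7.74%. Without the added bases C/EBP matches were in 1 footprint, 0.694% beside 0.464%. ETS cores were then in 5.56% beside 6.45% and E-boxes in 9.72% beside 5.52%. The PU.1 pattern was in none, beside 0.218%, and KLF/SP matches were in 8.33% beside 14.7%. In 200-base windows on the middle of the 77 regions, C/EBP matches were in 15.6% beside 7.23% of all 60596 shared regions. E-boxes were in 67.5% beside 45.7%, PU.1 patterns in 5.19% beside 3.49% and ETS cores in 51.9% beside 59.3%. The genome-wide footprints and regions include those at all promoters, whereas regions at other genes' promoters were left out of the member loci. The sets were not matched for their share of promoters, so differences between these percentages can come from that. Regions of 1 locus are not independent of each other, and no test was made of these shares.

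**Figure D3:**
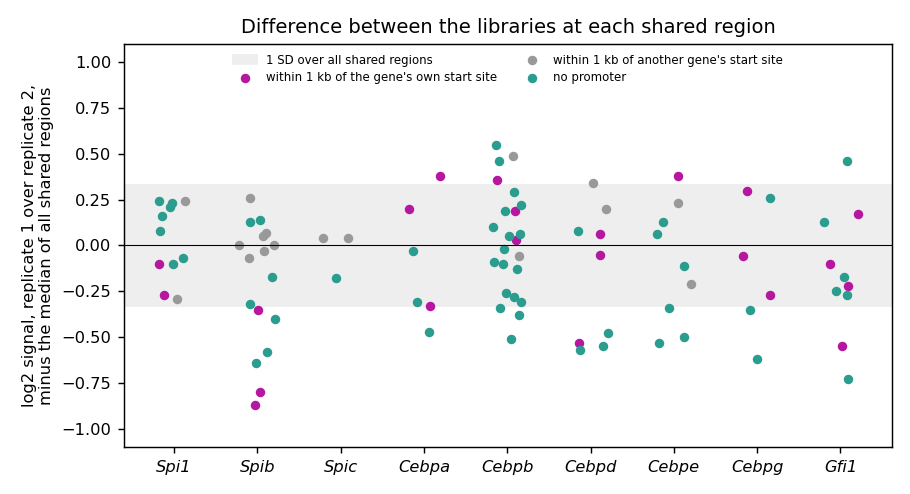
Log2 ratio of the signal in replicate 1 over replicate 2 at each shared region, minus the median over all shared regions, by gene. The grey band is 1 SD over all shared regions (0.33), and the lowest points are Spib regions, down to -0.87.

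At 65 of the 94 regions the centred ratio lay within 1 SD of all shared regions, 0.33 on the log2 scale. The same share over all shared regions was not counted here, so the 65 set these loci apart from no others. The lowest ratio was at Spib. Its 4 regions between 2.3 kb upstream and 0.7 kb downstream had centred log2 ratios of replicate 1 over replicate 2 from -0.87 to -0.35, so all were relatively stronger in replicate 2. These 4 were singled out after their values had been seen. Of all shared regions 0.99% lay lower than the lowest of the 4, and 15.7% lay at or below the highest. The regions inside the gene 3.9 kb and 4.4 kb downstream had ratios of 0.14 and -0.17. Of the remaining Spib regions that touch no promoter, the one 29.1 kb upstream had -0.58. Those 10.2 kb, 30.2 kb and 46.8 kb downstream had -0.32, 0.13 and -0.40. Low ratios also occurred at other loci, such as -0.73 at the region 47.2 kb downstream of Gfi1. The 7 regions at other genes' promoters in the same locus had ratios from -0.07 to 0.26. The locus also had 21 regions with peaks in replicate 2 alone and 1 in replicate 1 alone, beside 26399 and 18101 genome-wide. The 21 had signals from 0.184 to 0.842 with a median of 0.27, 11 of them were in the stricter list of replicate 2, and 4 lay within 10 kb of the start site. The 1 region of replicate 1 alone was stronger than all 21, at 1.42. On the same centring the promoters of the 15 B lineage genes had a median ratio of -0.49, with 11 of 15 below 0. Over all open promoters the median was 0.08, with 4792 of 13041 below 0. The erythroid markers had a median of 0.18 and the 2 open T cell markers 0.30. Medians were -0.15 for receptor and phagocyte genes, -0.04 for partners, 0.00 for granule genes and 0.02 for red pulp genes. Low ratios also occurred outside the B lineage list, with -0.82 at the lowest red pulp promoter and -0.78 at the macrophage marker Mertk. The part of these other promoters' differences in the one at Spib was not tested.

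**Figure D4:**
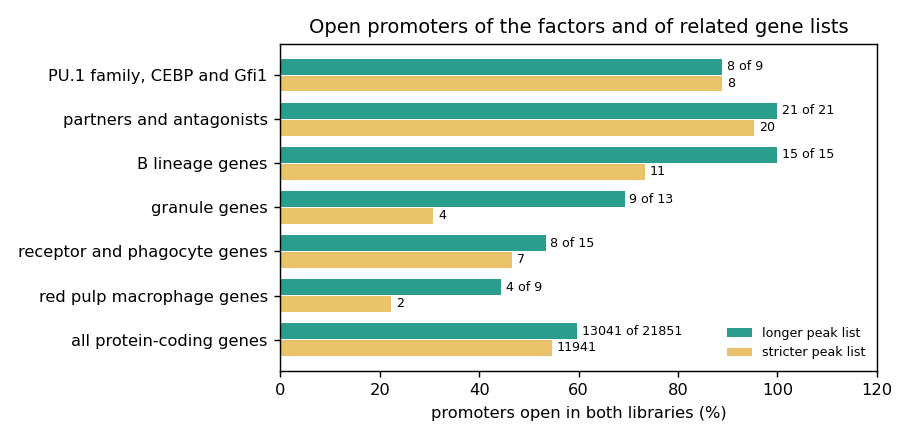
Share of genes with a promoter open in both libraries, in the longer and the stricter peak list, for the 9 factors, for lists of related genes and for all protein-coding genes. Partners and B lineage genes are open throughout in the longer list, while 4 of 13 granule genes are open in the stricter one.

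Lists of genes that act with these factors, or that they are known to switch on, were read by the same rule. All 21 partners and antagonists had an open promoter, among them Ddit3 (28.1 and 20.9) and Atf4 (13.2 and 10.8), which encode leucine-zipper partners of C/EBP proteins, and the immediate early gene Egr1 (10.9 and 9.03). All 15 B lineage genes were open, led by Ebf1 (2.99 and 4.02), the repressor gene Bcl6 (3.2 and 2.37) and Cd79b (2.09 and 3.12), a chain of the B cell receptor complex. In the stricter list 11 of these 15 were open. Of 15 receptor and phagocyte genes 8 were open, 53.3% beside the 59.7% of all genes. Highest were Csf2ra, a chain of the GM-CSF receptor, at 5.38 and 6, the oxidase subunit gene Cyba at 3.89 and 3.4, and Cd68 at 1.63 and 1.84. Cd14, Cybb and Fcgr1 had no promoter peak in either library.

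Granule genes are targets of C/EBPα and C/EBPε. Of 13, 9 were open, 69.2% beside 59.7% of all genes, and 4 were open in the stricter list, which holds 54.6% of all genes. S100a8 was highest, at 1.81 and 2.14, followed by S100a9 at 1.24 and 0.773 and Ltf, which encodes lactoferrin, at 0.935 and 0.838. The genes of the primary granules Elane, Mpo and Prtn3 had no promoter peak. Of the 9 genes of red pulp macrophages, in which SPI-C acts, 4 were open, 44.4% beside 59.7%. Slc40a1, which encodes the iron exporter ferroportin, had 7.06 and 4.47, and Hmox1, whose product breaks down haem, had 4.26 and 3.2. Slc11a1, a metal transporter gene of phagosomes, had 0.774 and 0.797. C1qa, Cd163 and Cd5l had no promoter peak. Median signals, as means of both libraries with a library without a promoter peak counted as 0, were 2.52 for the 9 factors, 3.98 for partners, 1.2 for B lineage, 0.578 for receptor, 0.594 for granule and 0.369 for red pulp genes, beside 1.04 for all genes.

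Markers of cell types a spleen at this age can hold, and of hepatocytes and pancreas from outside the spleen, were read in the same way. All 6 erythroid markers were open, as were 4 of 5 B cell, 2 of 4 T cell, 3 of 5 neutrophil and 1 of 4 macrophage markers. None of 4 stromal and none of 4 hepatocyte markers were open, and of the pancreatic markers Cpa1 alone was, at 0.516 and 0.523. Among macrophage markers Mertk was open, at 0.844 and 1.29, and Csf1r, C1qa and Adgre1 were not. Among neutrophil markers S100a8, Ltf and Csf3r were open, the last at 0.683 and 0.474, and Elane and Mpo were not. The neutrophil share, 60%, lies beside 59.7% of all genes.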

How the data were processed

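DNase-seq was made from spleen, with 2 libraries in 1 group. Per the labels, the assembly is mm10 (GRCm38), with no aligner or peak caller named in the sources used here. For each library the authors deposited a longer peak list (80323 and 88723 peaks), a stricter one (51123 and 56521), footprints (217159 and 252901) and positions with a cut-rate false discovery rate. The peak signal in column 7 is used as the authors deposited it; its scale is not stated and depth is unknown. The deposited footprint and cut-rate files give p-value-like false discovery rates, used only as listed. No count or confidence interval can be given without depth.

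Peaks of both libraries overlapping by at least 1 bp were merged into 105096 regions, of which 60596 were shared. Start sites are those of basic protein-coding transcripts (41438 sites, 21851 genes). Promoters span 1 kb on either side, and loci the gene and 50 kb on either side. Log2 ratios were centred on the median over shared regions (0.16). Regional annotation came from GENCODE vM21. Of 12 patterns searched, 1 was added after sequences had been seen. Merging was checked on simulated data. RefSeq promoters matched 6 of the 9 genes by symbol. Tools were Python 3.11.15, numpy 2.4.6, pandas 2.3.3, pysam 0.24.0, samtools 1.23.1 and matplotlib 3.10.9.

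All 9 genes, and in each list the 3 open genes with the highest mean and up to 3 without a peak in alphabetical order, are named, with the 3 strongest regions of each locus that touch no other promoter. The 9 genes were chosen by name. The lists were chosen with earlier results of these data known, so they give no independent support to those results. No test was run, because 1 group of 2 libraries allows no contrast. Likeness of pattern across samples was not computed for the same reason. The result for 1 marker gene is not reported here.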

Additional observations from a re-analysis of the deposited data

How the results depend on the processing

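The count of open promoters stayed at 8 of 9 without either library, with the stricter list, with a window of 2500 bp, with start sites of all transcripts, with a reciprocal overlap of 50% and with peaks above the library median. It was 6 with a window of 500 bp in both peak lists, where Spi1 and Cebpe were lost. The median promoter signal of the 9 genes, 2.52, became 1.67 with 500 bp and 2.89 with start sites of all transcripts, an alternative chosen after seeing the data that adds the Spi1 site 13.0 kb upstream to its promoter; leaving out 1 library gave 2.47 to 2.58. The 94 shared regions became 55 with 20 kb on each side and 139 with 100 kb, and 125 to 128 without one of the libraries. Shared footprints within 1 kb numbered 41, beside 72 to 87 in single libraries, and in the loci 231, beside 373 to 415; fewer are shared by construction. The mean signal 13.0 kb upstream of Spi1 was 2.83 to 2.96 without one library, and 37.3 kb downstream of Cebpa 0.568 to 0.624. The median centred ratio of the 4 regions near the Spib start site was -0.72, and -0.78 when centred on regions above the median signal. The single-library footprint counts, both enhancer ranges and this centring were chosen after seeing the data. No paired analysis was possible because there is only 1 group.

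Depth is unknown, so a promoter without a peak is not shown to be closed. The printed sequences are those of the reference and not of the CAST genome, and whether the 2 alleles differ in accessibility was not tested. Bulk spleen mixes cell types. Only 2 libraries give the spread.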
